A study of Homo sapiens with 8 samples.

Results

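The chromatin modifier and remodeler genes were followed in SK-N-BE(2), a human neuroblastoma cell line, after knockdown of METTL14. The genes were chosen by name, as the lysine demethylases (KDM), the KMT2 and SETD or SETDB methyltransferases, the core of Polycomb repressive complex 2, the CBX chromodomain proteins, the histone deacetylases, CREBBP and EP300, the SMARC, ARID and CHD proteins and the DNMT and TET enzymes, on the autosomes and chromosome X. The names picked 102 of the 56303 genes in the count table, of which 7 are pseudogenes of SMARCE1, and 1 further gene that matched was left out because it lies on chromosome Y.

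The study asked how loss of METTL14, a subunit of the enzyme that writes N6-methyladenosine (m6A) into RNA, alters m6A in mRNA. Cells carried a control shRNA (shNC) or an shRNA against METTL14 (shMETTL14), delivered by lentivirus and selected with puromycin according to the methods. From each of 2 cultures per arm, fragmented polyadenylated RNA was sequenced before (input) and after (IP) pull-down with an antibody to m6A, which gave 8 libraries. The methods list a pair of shRNA sequences against METTL14 and the labels number the shMETTL14 cultures without saying which sequence each carried, so the p-values below measure only the spread between these samples, which may be technical or may hold a difference between shRNAs.

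Genomic DNA is wrapped around histones, and these proteins set how open it is. Demethylases, methyltransferases, deacetylases and acetyltransferases remove or add chemical groups on histone tails. Chromodomain proteins such as HP1 and the Polycomb CBX proteins bind the methylated tails. Most SMARC and CHD proteins and some ARID proteins belong to machines that slide or evict nucleosomes with ATP. DNMT and TET enzymes add or oxidise methyl groups on DNA. Many of these genes are mutated or lost in childhood cancers, and ARID1A, ARID1B and CHD5 are known for this in neuroblastoma.

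Total counts ran from 32027379 to 47205265 per library. Between 82.2% and 83.5% of the counts from 1 to 10 were even in each library, a pattern that counting both reads of a pair would give, though no source used here states how pairs were counted. METTL14 stood at 51.6 and 50.9 CPM (counts over the TMM-adjusted library size) in the shNC inputs and at 14.3 and 15.3 in the shMETTL14 inputs, a log2 fold change of -1.79 (adjusted p = 1.28e-15). All 10 adrenergic neuroblastoma markers examined passed the low-count filter, 7 of them were higher in shMETTL14 input and none was lower, among them GATA2 at 163.8 and 164.3 CPM in shNC and 277.9 and 283.0 in shMETTL14 and TH at 34.0 and 37.2, then 72.2 and 73.4. Among all 22245 genes tested, 11.7% were higher and 12.3% lower. The summed level of the 10 was 5976 to 6212 CPM in shNC and 6311 to 6410 in shMETTL14. Most of this sum was MYCN, whose knockdown values, given below, lay within the range of the controls. The sum therefore says little about the other markers. Of 18 markers of fibroblasts, Schwann, blood, endothelial and epithelial cells, 16 were tested, 4 were higher (DCN, LUM, COL3A1 and PRRX1) and 4 lower (COL1A1, TWIST1, CD68 and KRT18), and the T cell marker CD3E was at 0 in both shNC inputs. The summed level of the 18 was 450.8 to 452.3 CPM in shNC and 458.8 to 459.0 in shMETTL14. The part of these shifts in the results below was not tested. In bulk RNA, fewer cells of a type and less RNA per cell cannot be told apart.

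Of the 102 genes, 98 had enough counts to be tested, and KDM4E and the pseudogenes SMARCE1P2, SMARCE1P4 and SMARCE1P7 did not. Without the pseudogenes, the 94 tested genes were long, with a median of 8239 exonic bases against 3356 for all genes tested, and well covered, with a median of 3152 counts in the first shNC input against 263. Compared per length (RPKM), the level in shNC input had a median of 10.5. The highest was CHD4, the main ATPase of the NuRD complex, at 149.0 ± 1.41 (SD, n = 2). SMARCA4, the BRG1 ATPase of the BAF complex, followed at 111.4 ± 0.317, then CBX1 at 77.3 ± 0.684, SMARCB1 at 75.9 ± 2.66 and KDM1A at 65.2 ± 1.21. CBX1 and SMARCB1 lay within 1 SD of each other. The lowest tested levels were those of SMARCE1P6 at 0.274 ± 0.117, CBX7 at 0.409 ± 0.0627, HDAC11 at 0.489 ± 0.0207, SMARCE1P1 at 0.489 ± 0.00265 and SETD9 at 0.492 ± 0.240, and HDAC11, SMARCE1P1 and SETD9 did not differ beyond their spread.

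In input RNA, more of the chromatin genes were higher than lower after METTL14 knockdown. Of 98 tested, 33 were higher (33.7%) and 11 lower (11.2%) at an adjusted p under 0.05, beside 11.7% higher and 12.3% lower among all 22245 genes tested. The median log2 fold change was 0.10 for the chromatin genes and 0.002 for all genes. Long genes were called more often, with 16.7% higher and 17.8% lower among the 9718 tested genes of at least 4000 exonic bases, and 30 higher and 11 lower among the 86 chromatin genes of that length. Most of the changes were small: 3 of the 33 rises and 1 of the 11 falls reached 0.5 on the log2 scale. Fewer genes passed without the second shMETTL14 culture, among the chromatin genes and among all genes. That fit holds 1 shMETTL14 library, so a call lost there can come from lower precision as well as from a smaller change. CBX8 lost its call at log2 0.47, against 0.43 with all cultures, and KDM7A at 0.31 against 0.33. Which of these applied to the other lost calls below was not tested.

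**Figure D1:**
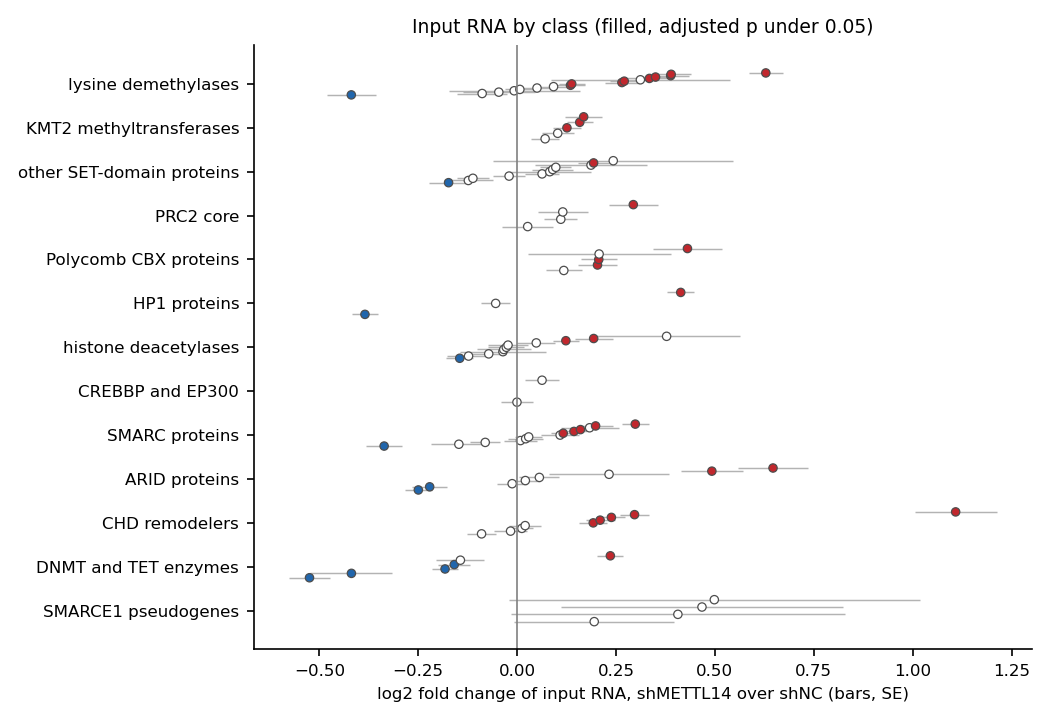
Log2 fold change of input RNA (shMETTL14 over shNC, horizontal axis) for the 98 tested genes by class, with bars of 1 standard error; red and blue points passed an adjusted p of 0.05 and open points did not. The rises spread over most classes, 4 of the 11 falls are DNMT and TET enzymes, and CHD5 lies farthest to the right at 1.11.

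Among the lysine demethylases, which erase methyl groups from histones, 9 of 17 tested were higher and 1 lower. KDM6B, which removes repressive methyl marks from histone H3, had 82.2 and 80.7 CPM in the shNC inputs and 123.9 and 127.9 in the shMETTL14 inputs (log2 0.63 ± 0.042 SE, adjusted p = 6.54e-11). The fitted rise was 1.55-fold. Both knockdown libraries lay above both controls, as in all 33 genes called higher, so this adds no support. KDM4A, an eraser of histone H3 trimethylation, rose from 50.8 and 52.3 to 65.6 and 69.4 CPM (log2 0.39), with 8.97% of its exonic bases in another gene. Its relative KDM4B rose from 72.1 and 75.1 to 94.8 and 92.8 CPM (log2 0.35). KDM3A, which removes the shorter repressive methyl marks, rose from 70.3 and 65.8 to 90.7 and 87.5 CPM (log2 0.39). KDM7A, a demethylase with a methyl-reading finger, rose from 40.4 and 37.7 to 48.5 and 49.9 CPM (log2 0.33), a call that was lost without the second shMETTL14 culture (adjusted p = 0.0605). The other rises were KDM2A, KDM5B, KDM1A and KDM5C, with log2 values from 0.13 to 0.27. KDM1B was the exception. This flavin-dependent eraser had 38.2 and 37.1 CPM in shNC and 27.5 and 28.8 in shMETTL14 (log2 -0.42 ± 0.063, adjusted p = 1.75e-05), while its paralog KDM1A stood at 359.1 and 349.8 against 391.6 and 388.6 CPM (log2 0.14). The rises of KDM1A and KDM5C were not called without either shMETTL14 culture, nor that of KDM5B without the second, which left 5 demethylases higher and KDM1B lower.

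In the KMT2 family, which holds methyltransferases of histone H3 at active promoters and enhancers, all 5 genes had positive log2 values. So did 67 of the 98 tested chromatin genes and 11218 of all 22245 genes tested. KMT2B, KMT2C and KMT2D passed the test. KMT2B and KMT2C did not pass without either shMETTL14 culture, nor KMT2B without the first shNC culture, and without the second shMETTL14 culture 0 of the 5 were called. KMT2D stood at 325.5 and 325.4 CPM in shNC and 361.3 and 365.1 in shMETTL14 (log2 0.16, adjusted p = 0.000717), a call that was lost without the second shMETTL14 culture (adjusted p = 0.0831). Of the 11 other SET-domain genes, SETD5 was higher, from 131.8 and 125.9 to 146.7 and 147.9 CPM (log2 0.19), a call that was lost without the second shMETTL14 culture (adjusted p = 0.0924). SETD3, known as an actin methyltransferase, was lower, from 67.3 and 64.9 to 58.7 and 58.5 CPM (log2 -0.17, adjusted p = 0.0099). The fall of SETD3 did not pass without the first shNC culture or without either shMETTL14 culture, with adjusted p from 0.0768 to 0.146. Other histone methyltransferases outside these families gave 5 higher and 4 lower of 19 tested, among them NSD1, which fell from 152.6 and 152.4 to 101.8 and 98.4 CPM (log2 -0.61), SMYD3 (log2 -0.31) and DOT1L (log2 0.21). Of 13 COMPASS partners of the KMT2 enzymes, 3 were higher (MEN1 by 0.23) and 1 lower (PAXIP1, log2 -0.25).

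In the Polycomb group, which keeps developmental genes silent, the direction was upward among the chosen genes. All 4 genes of the PRC2 core had positive log2 values, with SUZ12 at only 0.03. Positive values were found in 67 of the 98 chromatin genes and 11218 of all 22245 genes tested. EZH1, the alternative catalytic subunit, passed the test, with 31.2 and 31.0 CPM in shNC and 36.9 and 39.3 in shMETTL14 (log2 0.29). EZH2 had 135.3 and 138.6 against 141.8 and 153.9 CPM (log2 0.11, adjusted p = 0.0605). Of the 5 Polycomb CBX genes, which read methylated histone H3 within PRC1, CBX2 and CBX8 were among those that rose. CBX8 stood at 14.01 and 12.8 CPM in shNC and 18.7 and 17.5 in shMETTL14 (log2 0.43 ± 0.088, adjusted p = 0.000635), and its adjusted p was 0.0506 without the second shMETTL14 culture. The call of EZH1 was likewise lost there (adjusted p = 0.106), and 0 of the 5 Polycomb CBX genes were called. Of 24 tested PRC1 and accessory PRC2 subunits outside the chosen names, 6 were higher and 6 lower, with ASXL2 falling from 159.6 and 150.8 to 102.7 and 107.5 CPM (log2 -0.56), PHF19 from 58.4 and 60.2 to 41.9 and 38.3 (log2 -0.57), RBBP7 at log2 -0.32 and PCGF3 at 0.29.

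The 3 genes of heterochromatin protein 1 split. CBX1 (HP1 beta) rose from 240.2 and 237.2 to 313.6 and 322.2 CPM (log2 0.41 ± 0.034, adjusted p = 2.1e-09). CBX5 (HP1 alpha) fell from 359.1 and 357.5 to 272.3 and 276.5 CPM (log2 -0.38 ± 0.033, adjusted p = 4.02e-09). Both knockdown libraries lay outside the range of the controls in each gene, above it for CBX1 and below it for CBX5. The same held for all 33 rises and 11 falls called, so it adds no support. CBX3 (HP1 gamma) had 180.3 and 184.4 against 175.8 and 175.4 CPM (log2 -0.05, adjusted p = 0.323), and 7.93% of its exonic bases also lie in another gene.

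Of 11 histone deacetylases, HDAC2 (log2 0.12) and HDAC6, a mainly cytoplasmic deacetylase of tubulin (log2 0.19), were higher, but neither was called without the first or without the second shMETTL14 culture. HDAC9, a class IIa enzyme that binds MEF2 factors, was lower, from 285.2 and 278.9 to 252.4 and 257.7 CPM (log2 -0.15, adjusted p = 0.0026), and this call did not pass without either shMETTL14 culture (adjusted p = 0.0974 and 0.0723). Neither of the paired acetyltransferases passed the test: CREBBP had 159.0 and 151.4 against 157.6 and 152.8 CPM, and EP300 had 157.5 and 143.5 against 157.1 and 157.2 (log2 0.06, adjusted p = 0.32). Of 20 subunits of deacetylase complexes and sirtuins, 4 were higher and 1 lower, with the scaffolds SIN3A and SIN3B at log2 0.27 and 0.30 and MBD2 at -0.30. Of 14 other acetyltransferase genes, 2 were higher and 2 lower, with KAT8 at log2 -0.31 and HAT1 at -0.19.

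Of the 9 SMARC genes that encode BAF subunits, 5 rose and none fell. SMARCC2, a core scaffold, rose from 300.0 and 302.1 to 360.1 and 380.5 CPM (log2 0.30 ± 0.035, adjusted p = 4.96e-07). 6.01% of its exonic bases overlap another gene. SMARCD2 (log2 0.20), SMARCA4 (0.16), SMARCC1 (0.14) and SMARCE1 (0.12) were the others, and SMARCE1 shares 10.7% of its exonic bases with other genes. Among these, RP5-1028K7.3 on the same strand had 237204 counts over the 8 libraries, against 244402 for SMARCE1, so the value of SMARCE1 is uncertain. Without the second shMETTL14 culture SMARCC2 was the 1 BAF subunit still called, and without the first SMARCC1 and SMARCD2 were not. Of the other SMARC genes, SMARCA1, an ATPase of the ISWI family, fell from 129.8 and 119.0 to 101.6 and 95.4 CPM (log2 -0.34 ± 0.046), with an adjusted p of 5.79e-06 and of 0.0503 without the second shMETTL14 culture. Its paralog SMARCA5 had 352.6 and 332.7 against 347.4 and 351.9 CPM (log2 0.03). Among 20 other BAF and PBAF subunits 6 were higher (BCL7A by 0.36) and 1 lower (PHF10, log2 -0.30), and among 20 genes of the ISWI and INO80 families 4 were higher and 5 lower, with CECR2 at log2 -0.41 and HELLS at -0.36.

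The ARID genes, which share a DNA-binding domain named for AT-rich sites, moved in both directions, with 2 of 8 higher and 2 lower. ARID3B rose from 11.5 and 11.9 to 18.5 and 18.0 CPM (log2 0.65 ± 0.088, adjusted p = 4.51e-06). ARID3A rose from 17.0 and 15.96 to 23.2 and 23.2 CPM (log2 0.49). ARID1A, the BAF subunit, fell from 239.8 and 236.9 to 200.0 and 200.9 CPM (log2 -0.25 ± 0.035, adjusted p = 7.17e-06). Its paralog ARID1B had 201.4 and 190.0 against 197.5 and 190.4 CPM (log2 -0.01). ARID5B, a cofactor of a histone demethylase, was lower at 117.2 and 110.5 against 137.4 and 128.0 CPM (log2 -0.22), with an adjusted p of 0.000489 and of 0.124 without the second shMETTL14 culture.

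Of the 9 CHD remodelers 5 were higher and none lower. CHD5, a neuronal CHD protein of NuRD-type complexes, had the largest change of all the chromatin genes. It stood at 9.67 and 7.57 CPM in the shNC inputs and at 18.5 and 18.7 in the shMETTL14 inputs (log2 1.11 ± 0.104, adjusted p = 1.58e-08). The rise was 2.16-fold, and the 2 controls differed more from each other than the 2 knockdown libraries did. CHD7, mutated in CHARGE syndrome, rose from 163.4 and 157.8 to 194.2 and 200.3 CPM (log2 0.30). CHD3 (log2 0.24), CHD6 (0.21) and CHD8 (0.19) were also higher, and without the second shMETTL14 culture CHD6 and CHD8 were not called, which left 3. CHD4 was at 1121 and 1107 against 1124 and 1123 CPM (log2 0.01).

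The DNA methylation enzymes were the class with most falls, with 4 of 6 lower and 1 higher. TET2, which oxidises methylcytosine, fell from 63.7 and 66.4 to 45.8 and 44.6 CPM (log2 -0.52 ± 0.051, adjusted p = 3.28e-08). TET3 fell from 127.5 and 130.6 to 117.3 and 113.9 CPM (log2 -0.16), and TET1 had 39.4 and 43.1 against 38.0 and 36.7 (log2 -0.14, adjusted p = 0.093). DNMT3B, a de novo methyltransferase, fell from 13.3 and 12.6 to 8.97 and 10.4 CPM (log2 -0.42 ± 0.104, adjusted p = 0.00389). DNMT1, which maintains methylation after replication, fell from 574.7 and 554.1 to 504.1 and 490.8 CPM (log2 -0.18). DNMT3A moved the other way, from 325.9 and 325.8 to 388.5 and 378.9 CPM (log2 0.24). With no filter beyond 1 read, DNMT3B and TET3 were not called lower. The fall of DNMT3B did not pass without the first shMETTL14 culture (adjusted p = 0.122), nor those of TET3 and DNMT1 without the second (adjusted p = 0.147 and 0.0641). Among 10 partners of these enzymes none was higher and 2 were lower, GADD45A (log2 -0.36) and GADD45B (-0.80). None of the 4 tested SMARCE1 pseudogenes passed, and the one with the smallest p, SMARCE1P5, was at 0.554 and 1.10 against 1.16 and 1.13 CPM (adjusted p = 0.393), with reads that may come from SMARCE1.

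**Figure D2:**
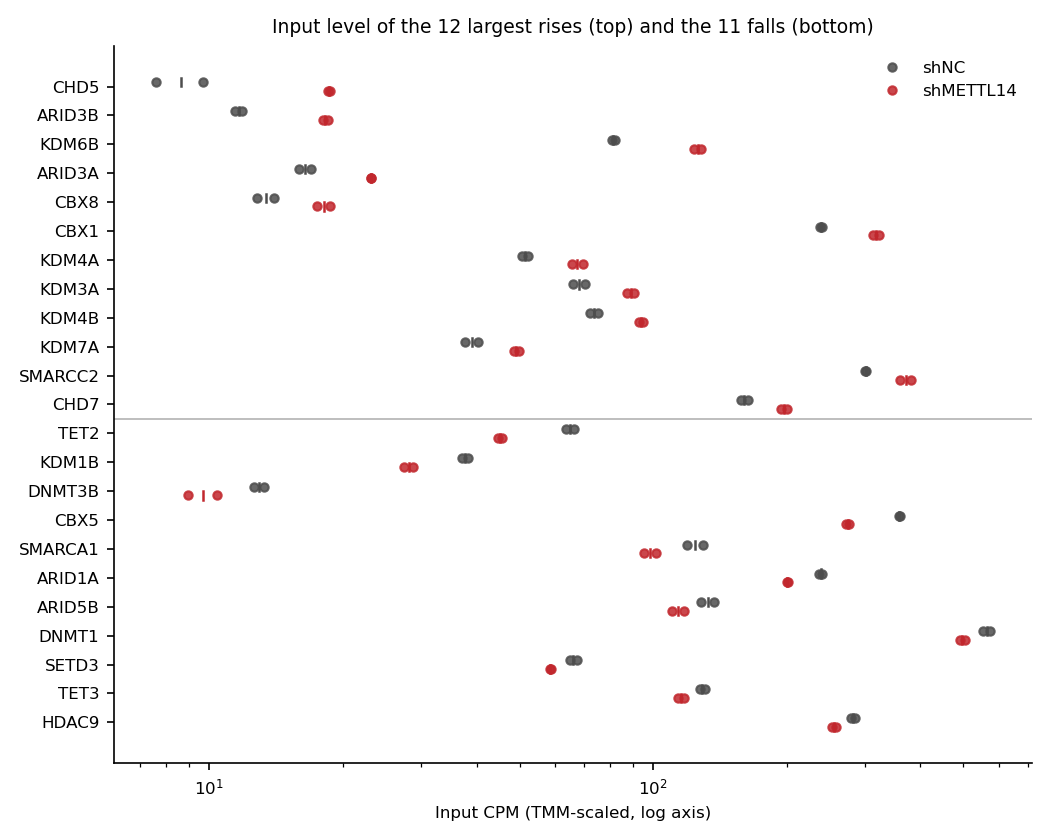
Input level in CPM (log axis) of the 12 chromatin genes with the largest rises (above the line) and the 11 that fell (below it), with 1 point per library and a tick at the mean of each arm. The shNC and shMETTL14 points do not overlap in any of the 23 genes. The genes were picked by their change in these same libraries, so this adds no support. The gap is widest for CHD5.

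The E-box CACGTG, a site that MYC-family factors can bind, was looked for in the RefSeq promoter windows (GRCh38.p14, 250 bases before to 50 after the start) because MYCN stood at 4636 and 4405 CPM in the shNC inputs and 4516 and 4471 in the shMETTL14 inputs. Windows whose start lay within 500 bases of the start in the count table's annotation were used, which 62 of the chromatin genes had. The motif reads the same on both strands. It was present in 10 of the 62 (16.1%) and in 8.9% of the 13107 genes with such a window. It occurred in 2 of 7 genes that were lower in shMETTL14 input and in 1 of 16 that were higher. The E-boxes of those 3 genes are shown in windows of 30 bases read 5′ to 3′ along the gene, with the motif in capitals, to set the falling TET2 and CBX5 beside the rising KDM4B.
TET2, chr4:105145845-105145874, plus strand: ccccttctactcagccCACGTGgctaaagt
CBX5, chr12:54280249-54280278, minus strand: tgcctctgagaaCACGTGaaatggcgggca
CBX5, chr12:54280312-54280341, minus strand: tcttgttgaccgCACGTGtagtaaaatggc
KDM4B, chr19:4968863-4968892, plus strand: gtcagcgggCACGTGggtgggcgccggcgt
The motif began 14 bases before the RefSeq start in TET2, 144 and 207 bases before it in CBX5 and 241 bases before it in KDM4B. The ETS motif CCGGAAGT was found in 3.23% of the 62 windows and 6.2% of all windows, and the YY1 motif AAGATGGC in 6.45% and 3.89%, on both strands.

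The chromatin genes gave more IP than input reads, relative to the typical gene, in both arms. In shNC, IP exceeded input for 57 of 98 genes (58.2%) and fell below it for 21 (21.4%), beside 29.1% above and 29.8% below among all 22953 genes tested. The median log2 of IP over input was 0.298 for the chromatin genes and -0.014 for all genes. Among all genes of at least 4000 exonic bases, 36.8% were above and 31.0% below. In shMETTL14, 57 were above and 19 below (58.2% and 19.4%, beside 28.9% and 29.1% of all genes), and 55 genes were above and 17 below in both arms. These arms share no library, but they were fitted in 1 model with a shared estimate of spread and joint scaling. The arms are thus not independent tests, and the share of all genes called in both was not computed. Zero on this scale is set by the scaling. With factors taken from the least enriched 25% of genes, the median of all genes shifted by 0.935 in shNC and 92 chromatin genes were above input and 2 below (71.9% and 4.44% of all genes), and with library size alone 48 were above and 29 below (23.3% and 35.9%).

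**Figure D3:**
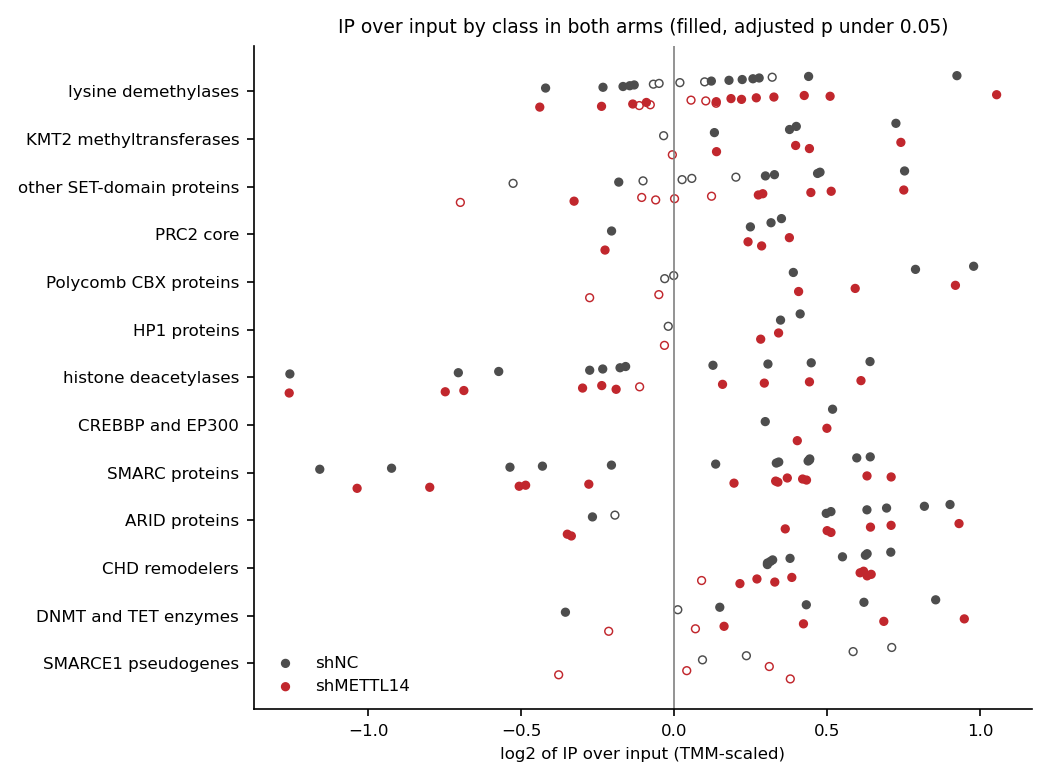
Log2 of IP over input (horizontal axis) for each tested chromatin gene by class, in shNC (grey) and shMETTL14 (red), filled where the adjusted p was under 0.05. All 9 CHD genes lie to the right of 0 in both arms, and the histone deacetylases and SMARC genes spread over both sides, down to HDAC10 at -1.26.

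Among the genes with high IP over input, KDM4D, a relative of KDM4A, gave 2.58 and 1.38 in shNC and 2.09 and 2.08 in shMETTL14 on low counts, and its shNC value did not pass without the first culture (adjusted p = 0.176). ARID5B had 1.76 and 1.99 in shNC and 1.89 and 1.93 in shMETTL14 (log2 0.90), and TET1 had 1.90 and 1.72, then 1.89 and 1.98 (log2 0.86). ARID4A, a subunit of a SIN3 deacetylase complex, was at 1.80 and 1.72, then 1.66 and 1.61. CBX8 was at 1.66 and 1.80, then 1.38 and 1.64. SETD2, the writer of trimethyl marks along transcribed genes, was at 1.70 and 1.68, then 1.70 and 1.67, and KMT2E at 1.62 and 1.69, then 1.67 and 1.67. In these 7 genes every culture of both arms had more IP than input on this scale. The genes were picked by their high shNC values and the arms share 1 model, so this adds no support.

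The lowest value was that of HDAC10, a polyamine deacetylase, at 0.450 and 0.397 in shNC and 0.367 and 0.471 in shMETTL14 (log2 -1.26 ± 0.129), but 55.8% of its exonic bases also lie in another gene, so its value is uncertain. SMARCD2 and SMARCD1, alternative subunits of BAF, had no such overlap. SMARCD2 was at 0.471 and 0.424 in shNC and 0.480 and 0.495 in shMETTL14 (log2 -1.16 ± 0.051), and SMARCD1 at 0.508 and 0.548, then 0.552 and 0.598 (log2 -0.92). HDAC7, with 11.2% of its exonic bases in another gene, was at 0.629 and 0.598, then 0.598 and 0.592 (log2 -0.71), and SMARCB1, the BAF subunit lost in rhabdoid tumours, at 0.706 and 0.673, then 0.710 and 0.698 (log2 -0.54). SMARCAL1, a fork-remodeling helicase, was at 0.769 and 0.718, then 0.688 and 0.742. HDAC11, at 0.548 and 0.825, then 0.518 and 0.735, rested on low counts and was not called by DESeq2 in shNC (adjusted p = 0.10) or without the first shNC culture (0.518). SETD9, at 0.995 and 0.554, then 0.645 and 0.587, did not pass in shNC (adjusted p = 0.18). Under factors from the least enriched genes, SMARCD1, HDAC7, HDAC11, SMARCB1, SETD9 and SMARCAL1 changed sign, and SMARCD2 and HDAC10 did not.

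By class, IP exceeded input for all 9 CHD genes, for 6 of 8 ARID genes, for 4 of 5 KMT2 genes and for both CREBBP and EP300 in shNC. CHD5 rested on 1.01 and 1.57 in shNC and was not called in shMETTL14. With library size alone, CHD5 and KMT2D were not called in shNC. Of the 11 histone deacetylases 4 were above and 7 below, with class I at 3 above and 1 below and class IIa at 1 above and 3 below. The 9 BAF subunits of the SMARC family gave 5 above and 4 below. These splits depend on the scaling. With factors from the least enriched genes, HDAC3, HDAC4, HDAC5, HDAC6, HDAC7, SMARCB1 and SMARCD3 were called above in shNC. Genes with IP above input had longer exons, with a median longest exon of 2682 bases and a range from 611 to 8875, against 1867 bases and 568 to 5808 for those below. Spearman's rho of log2 IP over input with the longest exon was 0.31 across 94 chromatin genes and 0.18 across the 22953 tested genes, which share libraries and are not independent replicates.

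METTL14 knockdown left no chromatin gene with a called change of IP over input. Of 98 tested, 0 were higher and 0 lower with edgeR or with DESeq2 (0.0% higher and 0.00436% lower among all 22953 genes with edgeR), and at an unadjusted p under 0.05 there were 0 higher and 1 lower with either tool, beside 3.03% and 3.31% of all genes. The unadjusted counts moved with the setting, to 14 lower without the first shNC culture, 7 higher without the second and 26 lower with factors from the least enriched genes, and none of these settings gave an adjusted call. The smallest adjusted p was 0.70, that of SETD7, a lysine methyltransferase, at 0.853 and 0.912 in shNC and 0.846 and 0.753 in shMETTL14 (log2 change -0.15 ± 0.059, unadjusted p = 0.0174). The next falls were SMARCE1P3, on few reads, and CBX8 (log2 change -0.20 ± 0.116). The rises with the smallest unadjusted p were KDM5B (0.12 ± 0.063), SMARCD1 (0.12 ± 0.072) and SMARCD2 (0.12 ± 0.071). A p that misses the threshold does not show that the arms are alike, and the intervals give the size allowed relative to the typical gene. Counts cover all exons of a gene, so the intervals do not bound a change at 1 m6A site within it. A change shared by all genes is centred away by the scaling, and factors from the least enriched genes shifted the change of all genes by -0.122 and put the median of the chromatin genes at -0.133. Over the 94 genes without pseudogenes the log2 change ran from -0.27 to 0.21, and the 95% interval lay wholly between -0.5 and 0.5 for 87 genes and between -0.25 and 0.25 for 74. CHD5, the gene with the largest input rise, had a change of -0.22 ± 0.145, with an IP over input of 1.01 and 1.57 in shNC and 1.08 and 1.05 in shMETTL14.

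**Figure D4:**
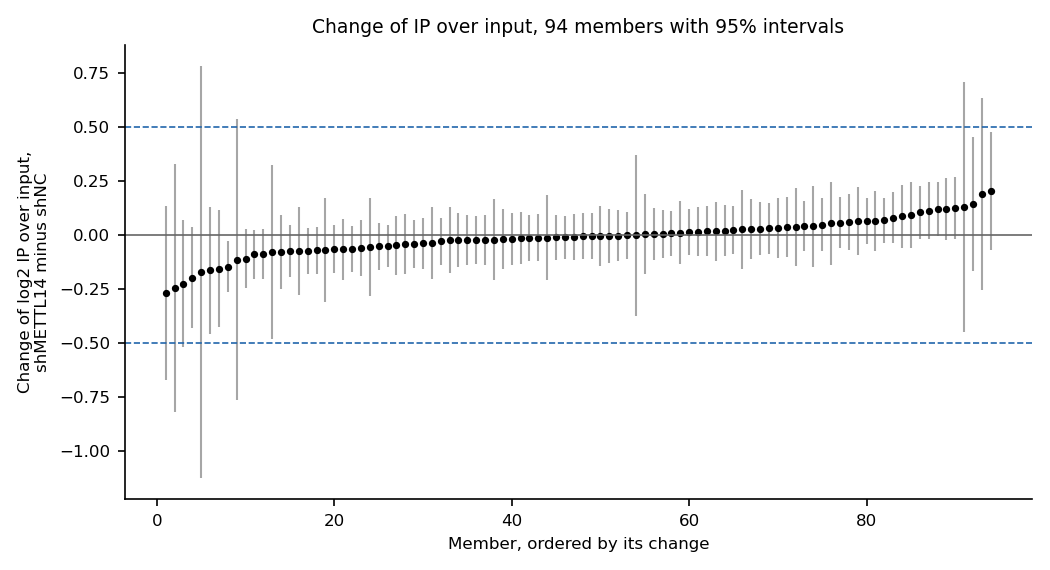
Change of log2 IP over input between shMETTL14 and shNC (vertical axis) for 94 chromatin genes ordered by that change, with 95% intervals as vertical lines and dashed lines at -0.5 and 0.5. The points run from -0.27 to 0.21, and 87 intervals stay between the dashed lines.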

How the data were processed

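The count table holds raw counts per gene for 8 libraries, as the authors deposited it. The labels name Trimmomatic 0.36 and GRCh38, and stranded libraries with unique molecular identifiers of 8 bases. The aligner, the counter and its strand setting are not given in the sources used here, so overlapping genes and pseudogenes are uncertain. The deposited Length column gave exonic bases for RPKM. The tests were edgeR 4.0.16 quasi-likelihood fits in R 4.3.3 (filterByExpr, TMM, glmQLFit, glmQLFTest, Benjamini-Hochberg, threshold 0.05), the 4 input libraries for the input comparison and 1 model of 8 libraries with 4 group means for IP over input and its change between the arms. The standard error is the absolute log2 fold change over the square root of F. Figures and summaries used Python with pandas and SciPy.

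Per-library values are given for the 12 largest rises and falls in input, the smallest p of each class, the 8 highest and lowest IP over input, the 3 rises and falls in its change with the smallest p, and the 5 highest and lowest levels, apart from an item that is not reported here. The gene names, lists and tests were chosen with earlier results of these data known. IP and input of a culture come from 1 RNA by the protocol, and their deviations correlated by 0.004 and 5.7e-05 across 22953 genes. Cultures of the 2 arms share only a number. Small counts were mostly even, and neither the counting of pairs nor the removal of duplicates is given in the sources used here. On halved counts, replicate libraries still differed by a chi-square per gene of 1.28 to 2.25, above sampling noise. Counting noise is thus not a small part of the spread between replicates, and 2 cultures per arm limit the precision. The code was tested on simulated data. Alternatives included DESeq2 1.42.0, other scalings and filters, the replicate block, long or non-overlapping genes and each culture left out. Halved counts were added after seeing the data.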

Additional observations from a re-analysis of the deposited data

How the results depend on the processing

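The log2 fold change of METTL14 stayed between -1.84 and -1.74 in all settings. The 33 higher and 11 lower genes in input were called by DESeq2 and with other scaling factors, but 6 were lower with no filter beyond 1 read, and leaving out 1 culture gave 13 to 35 higher and 5 to 13 lower. With a lone sample in an arm its spread is assumed to be that of the other arm. For IP over input, genes with no exon overlap (59 tested, so fewer could be called) gave 35 higher and 11 lower in shNC and 34 and 10 in shMETTL14. Factors from the least enriched genes gave 92 and 2 in shNC and 91 and 2 in shMETTL14. With 1 culture left out, IP over input gave 54 to 57 higher and 14 to 20 lower in shNC, and 50 to 57 and 14 to 21 in shMETTL14. The IP libraries alone, which hold the input change as well, gave 34 higher and 13 lower in shMETTL14. The fit with the replicate block gave 34 higher and 12 lower in input, 57 and 21 for IP over input in shNC, 57 and 18 in shMETTL14 and 0 and 0 for the change. Halved counts, chosen after seeing the data, gave 34 and 12 in input with the 33 and 11 calls kept, 57 and 21 in shNC, 57 and 22 in shMETTL14 and 0 and 0 for the change.

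Of 41 called named values followed through the settings, 18 lost their call or turned sign in at least 1. The named values, called or not, that turned sign were EP300 in input, from -0.0052 to 0.1311 with 1 culture left out, IP over input in shNC under factors from the least enriched genes (SMARCD1 0.0126, HDAC7 0.23, HDAC11 0.36, SMARCB1 0.40, SETD9 0.41, SMARCAL1 0.51), and the change of KDM5B at -0.0037 under those factors and of CBX8 at 0.23 in the IP libraries alone. Apart from those factors being built from genes with low IP over input, the cause was not tested. Low counts limit KDM4D, HDAC11, SETD9, CBX7 and the pseudogenes.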
